A study of Mus musculus with 14 samples.

Results

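The genes described here are 40 genes of the DNA replication machinery, taken by gene symbol from the deposited table of estimated counts, which holds 55487 genes. Replication starts when the origin recognition complex, with Cdc6 and Cdt1, loads the Mcm helicase onto DNA in G1. In S phase Cdc45 and the GINS complex join the helicase, primase and the DNA polymerases copy the strands, and the ring-shaped clamp Pcna, opened by the Rfc clamp loader, keeps the polymerases on the template. Many of these genes are transcribed under E2F control as cells enter the cycle, so their transcripts are abundant in dividing cells such as those of the ureteric bud, whose branching epithelium gives rise to the collecting duct system.

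The libraries were made from mouse kidneys at E13.5, an embryonic stage of branching, from cells sorted for GFP. Every library's title holds the letters hox, read here as the Hoxb7-Cre transgene, which expresses Cre together with GFP in the ureteric bud lineage. The 5 libraries labelled Cep120 KO (libraries 2, 4, 5, 6 and 7) are marked homozygous in their titles; Cep120 encodes a protein needed to build centrioles. Their 3 controls come from the same line, with a genotype label of WT and titles that mark them as heterozygous. The 3 Pkd1 KO libraries are also marked homozygous, for the gene of polycystin-1, and have 3 controls of their own line labelled in the same way. The exons removed from either gene are not given by the labels, and neither is the origin of the replicates (embryo, litter or pool); p-values therefore measure library spread alone, some or all of it possibly technical. Total counts ran from 11347628 to 27967540 per library.

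Some library values stand before the results, because they move with them. Cep120 itself was read at 7.87, 19.5, 21.2, 13.1 and 16.5 CPM (counts scaled to library size, with TMM between libraries) in libraries 2, 4, 5, 6 and 7, against 10.6, 6.41 and 9.45 CPM in controls 1, 2 and 3, so its reads do not check the label. Pkd1 had 2.68, 2.39 and 2.42 CPM in Pkd1 KO, against 4.60, 3.34 and 3.84 CPM in its controls. Libraries 4 to 7 had TMM factors of 1.15 to 1.32, against 0.862 to 0.966 in the other 10. Relative to the mean of the line's controls, the median of the tenth of genes with the longest transcripts minus that of the tenth with the shortest was 1.21 to 1.58 (log2) in libraries 4 to 7, against -0.20 to 0.18 in the other 10. Summed over the listed ureteric bud markers, libraries 6 and 7 had 1350 and 1926 CPM, against 3336 to 3850 CPM in the other 12. Calb1 was the largest part, with 400 and 696 CPM in libraries 6 and 7, against 1472 to 1939 CPM outside libraries 4 to 7. Libraries 4 and 5 had 874 and 942 CPM of Calb1. Gata3, Ret, Wnt11, Cdh1, Epcam and Krt18 were also lower in libraries 6 and 7 than in the other 12. Pax2 was higher there, at 61.9 and 54.6 CPM against 11.1 to 27.1 CPM, and Hoxb7 and Wnt7b lay within the range of the others. Krt8 (236 CPM) and Wnt9b (10.3 CPM) were below the others in library 6 alone. In library 7 they lay within that range, at 282 and 18.3 CPM. The nephron progenitor list summed to 791 and 605 CPM in libraries 6 and 7, against 31.6 to 69.7 CPM in the other 12. From this list, Cited1 and Tmem100 lay within the range of the other 12. Stroma markers summed to 139 and 146 CPM in libraries 6 and 7, against 1.73 to 66.0 CPM in the other 12. Meis1 (63.9 and 55.5 CPM), Foxd1 and Col3a1 exceeded the other 12 in both libraries. Tcf21 did so in library 6 alone (33.8 CPM) and Col1a1 in library 7 alone (56.8 CPM). Pdgfra, Pdgfrb and Dcn did not exceed the other 12. Endothelial markers summed to 39.6 CPM in library 7, against 0.329 to 11.0 CPM in every other library. Macrophage and leukocyte markers summed to 20.9 to 31.4 CPM in the libraries labelled Cep120 KO, against 69.4 to 80.8 CPM in their controls. Coro1a made much of that gap, at 9.24 to 18.1 CPM, against 36.7, 54.5 and 37.4 CPM in controls 1, 2 and 3. In libraries 6 and 7, C1qb, Csf1r and Cd68 stood above control 2 and below controls 1 and 3, while Ptprc and Tyrobp stood below every control. Erythroid markers summed to 5.51 to 1129 CPM in the libraries labelled Cep120 KO, against 511 to 7224 CPM in their controls. The part of any of these cells in the results below was not tested. Libraries 4 and 5 differed from each other less than any other pair of replicates did (chi-square per gene of 4.39, the next lowest 11.97). No batch is given, and since libraries 4 to 7 all carry the Cep120 KO label, library set and genotype cannot be told apart. In bulk RNA, fewer cells in S phase and less RNA per cell cannot be told apart either.

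Promoter sequences are shown first, for members whose values are given in full below. RefSeq (GRCm38.p6) gave promoters, windows of 300 bases around a RefSeq start, for 33 of the 40 members; Pole, Prim2, Gins1, Gins2, Gins4, Mcm4 and Rfc2 had none in the table. A RefSeq start can differ from the GENCODE gene start, and the Mcm5 window ends just before the GENCODE one. Capitals mark the E2F-type letters searched for on both strands: TTTCCCGC, TTTCGCGC, TTTGCCGC and TTTGGCGC, which can overlap each other. Mcm5 and Mcm6 are subunits of the same helicase and moved apart in libraries 6 and 7; Cdt1 and Gins3 had the highest fold changes among members with a match; Rfc1, Rfc4 and Tk1 passed the test in the Cep120 comparison.
Mcm5 (chr8:75109259-75109558, plus strand): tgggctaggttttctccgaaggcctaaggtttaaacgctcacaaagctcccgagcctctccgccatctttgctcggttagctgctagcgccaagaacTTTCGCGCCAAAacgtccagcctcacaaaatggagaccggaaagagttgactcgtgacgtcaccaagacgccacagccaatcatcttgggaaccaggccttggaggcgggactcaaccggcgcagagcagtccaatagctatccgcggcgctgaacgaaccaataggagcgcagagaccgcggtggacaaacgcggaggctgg
Mcm6 (chr1:128359656-128359955, minus strand): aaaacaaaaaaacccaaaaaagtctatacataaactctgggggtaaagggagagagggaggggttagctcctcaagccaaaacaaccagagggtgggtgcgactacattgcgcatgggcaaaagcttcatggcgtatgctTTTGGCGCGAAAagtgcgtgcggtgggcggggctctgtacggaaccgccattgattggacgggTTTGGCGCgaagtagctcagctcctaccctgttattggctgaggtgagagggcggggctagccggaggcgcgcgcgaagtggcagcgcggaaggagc
Cdt1 (chr8:122567765-122568064, plus strand): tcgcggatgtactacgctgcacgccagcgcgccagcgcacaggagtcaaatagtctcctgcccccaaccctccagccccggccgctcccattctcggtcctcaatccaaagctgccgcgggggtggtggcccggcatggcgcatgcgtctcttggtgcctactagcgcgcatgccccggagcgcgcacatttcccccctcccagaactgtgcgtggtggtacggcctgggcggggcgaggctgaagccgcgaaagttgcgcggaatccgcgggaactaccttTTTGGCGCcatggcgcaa
Gins3 (chr8:95633309-95633608, plus strand): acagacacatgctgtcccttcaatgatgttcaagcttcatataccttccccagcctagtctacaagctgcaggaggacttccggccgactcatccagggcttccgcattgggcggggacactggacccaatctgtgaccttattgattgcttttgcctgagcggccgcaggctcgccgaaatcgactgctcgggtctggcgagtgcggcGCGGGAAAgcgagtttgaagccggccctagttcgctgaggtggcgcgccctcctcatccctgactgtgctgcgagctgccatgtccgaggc
Rfc1 (chr5:65335590-65335889, minus strand): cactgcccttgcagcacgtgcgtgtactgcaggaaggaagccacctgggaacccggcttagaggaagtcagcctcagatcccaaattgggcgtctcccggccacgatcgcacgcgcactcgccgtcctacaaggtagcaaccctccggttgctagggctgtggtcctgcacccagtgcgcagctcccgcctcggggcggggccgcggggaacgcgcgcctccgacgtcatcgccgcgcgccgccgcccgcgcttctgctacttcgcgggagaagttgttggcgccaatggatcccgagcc
Rfc4 (chr16:23127681-23127980, minus strand): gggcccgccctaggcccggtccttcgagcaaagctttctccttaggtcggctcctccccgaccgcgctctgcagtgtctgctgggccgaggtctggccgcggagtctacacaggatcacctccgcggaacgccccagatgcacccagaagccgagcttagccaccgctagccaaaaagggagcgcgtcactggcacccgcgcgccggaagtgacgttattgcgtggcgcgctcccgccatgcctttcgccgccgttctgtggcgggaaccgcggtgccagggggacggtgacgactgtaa
Tk1 (chr11:117825965-117826264, minus strand): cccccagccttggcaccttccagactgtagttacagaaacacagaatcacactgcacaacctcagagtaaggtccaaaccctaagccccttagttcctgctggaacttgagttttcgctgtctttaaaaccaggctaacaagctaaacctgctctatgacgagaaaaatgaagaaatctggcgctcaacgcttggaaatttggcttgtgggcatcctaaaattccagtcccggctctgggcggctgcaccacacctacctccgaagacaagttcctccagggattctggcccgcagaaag
At least 1 of the E2F-type strings stood in the promoters of 15 of the 33 members (45.5%), against 704 of 27025 genes in the table (2.60%). The letters CCAAT stood in 63.6% of members' promoters and in 41.1% of all genes' promoters, and TTTGAA in 12.1% and 20.2%. Mcm5 and Mcm6 both hold TTTCGCGC and TTTGGCGC, overlapping each other, while Rfc1, Rfc4 and Tk1 hold none of the E2F-type strings. Members with an E2F-type match had a median log2 fold change of 0.15 in the Cep120 comparison, with 10 of 15 positive, and members with an entry and no match had -0.31, with 5 of 18 positive. These are descriptions of letters in a window, with no test.

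All 40 members passed the filter on low counts, and each was read in every library. On the TPM scale, which divides by transcript length, the 6 controls of both lines placed Tyms highest at a mean of 453 TPM and Pola1 lowest at 3.53 TPM. Tyms makes thymidylate for DNA synthesis, and Pola1 is the catalytic subunit of polymerase alpha. After Tyms came Rrm2 at 306, Pcna at 220.4, Rfc4 at 206, Rfc2 at 189, Gins2 at 162, Mcm5 at 153 and Tk1 at 149 TPM. At the low end stood Mcm10 at 9.26, Pole at 6.53, Rfc1 at 6.44, Orc1 at 4.29 and Gins3 at 3.85 TPM, all levels over the same 6 controls. Rfc4, Pcna and Rfc2 overlapped in their ranges only in part: Rfc4 ran from 186 to 226 TPM, Pcna from 200.0 to 237 TPM and Rfc2 from 172 to 203 TPM in single controls. Subunits of the same complex therefore differed in level, with GINS running from 3.85 TPM (Gins3) to 162 TPM (Gins2) and the clamp loader from 6.44 TPM (Rfc1) to 206 TPM (Rfc4). For Gins2 and Rfc2 the gene TPM rests mostly on short transcripts annotated with a retained intron, which took 82.8 to 87.3% of Gins2 and 80.1 to 84.0% of Rfc2 in the 6 controls, so their place in this order depends on those transcripts.

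**Figure D1:**
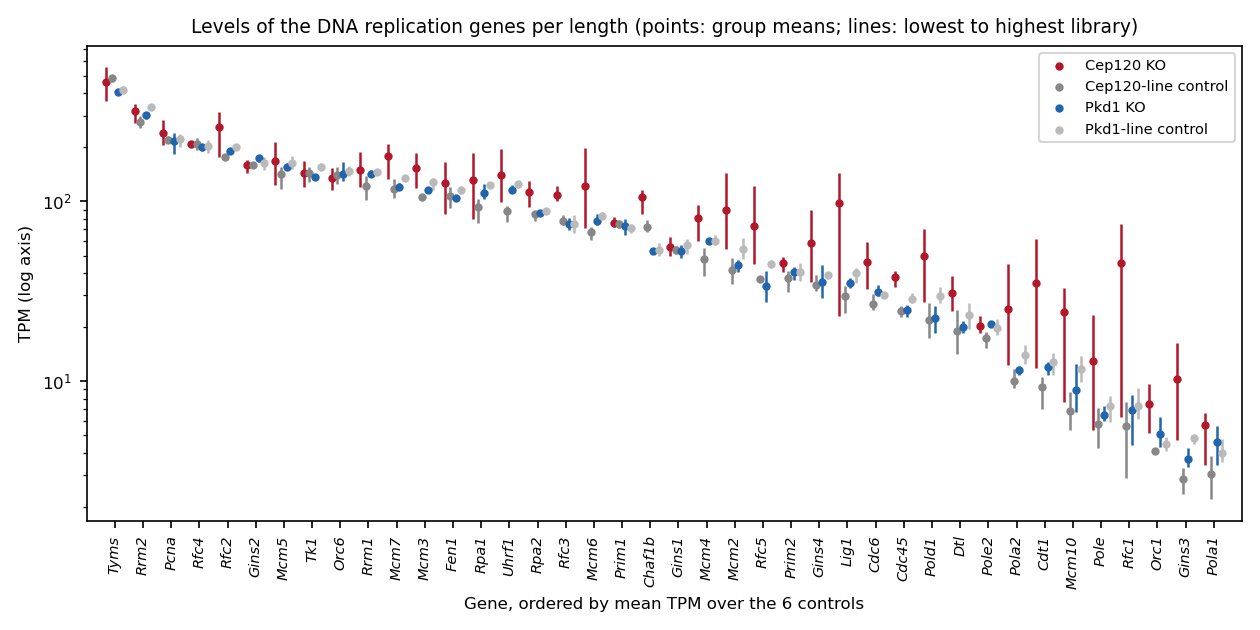
TPM of the 40 DNA replication genes on a log axis, ordered by their mean over the 6 controls, with a point for each group mean and a line from the lowest to the highest library (Cep120 KO n = 5, other groups n = 3). Levels run from 453 TPM for Tyms to 3.53 TPM for Pola1 in controls, and the libraries labelled Cep120 KO spread widely for Rfc1 (6.29 to 74.5 TPM) and Lig1 (22.96 to 144.6 TPM).

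In the libraries labelled Cep120 KO, 5 of the 40 genes passed the test against their controls: Rfc1, Gins3 and Mcm10 were higher, and Rfc4 and Tk1 were lower. The edgeR quasi-likelihood test, with Benjamini-Hochberg adjustment over 16876 genes and a threshold of 0.05, called 14.7% of all genes and 12.5% of the members. By direction, the 3 higher members are 7.5% of the list, against 8.4% of all genes, and the 2 lower ones are 5%, against 6.26%. The members' share is near that of all genes in each direction. The median log2 fold change of the members was -0.09 (18 positive and 22 negative), and that of all genes tested was 0.12. The calls depended on single libraries: none of the 5 held without library 7, or without control 1, 2 or 3, and only Tk1 held without library 6, whereas 20 members passed without library 2 (6 higher and 14 lower, 5719 genes in all). A separate fit of these groups also called 0 members. The split by direction moved with the tool and scale: limma-trend on the deposited log2 CPM called 7 higher and 0 lower members, DESeq2 6 and 6, and limma-voom 7 and 15. The median log2 fold change of all genes was 0.45, 0.096 and 0.087 in the same order. That of the members was 0.27, -0.11 and -0.17. Without libraries 6 and 7 the calls were Gins3 (log2 0.71), Rfc1 (2.14) and Tk1 (-0.57), and without libraries 4 and 5 they were Cdt1, Gins3, Mcm2, Pola2 and Rfc1 (higher) and Tk1 (lower). The shares of all genes called in each direction are not given for these alternatives, so these counts do not set the members apart from other genes.

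**Figure D2:**
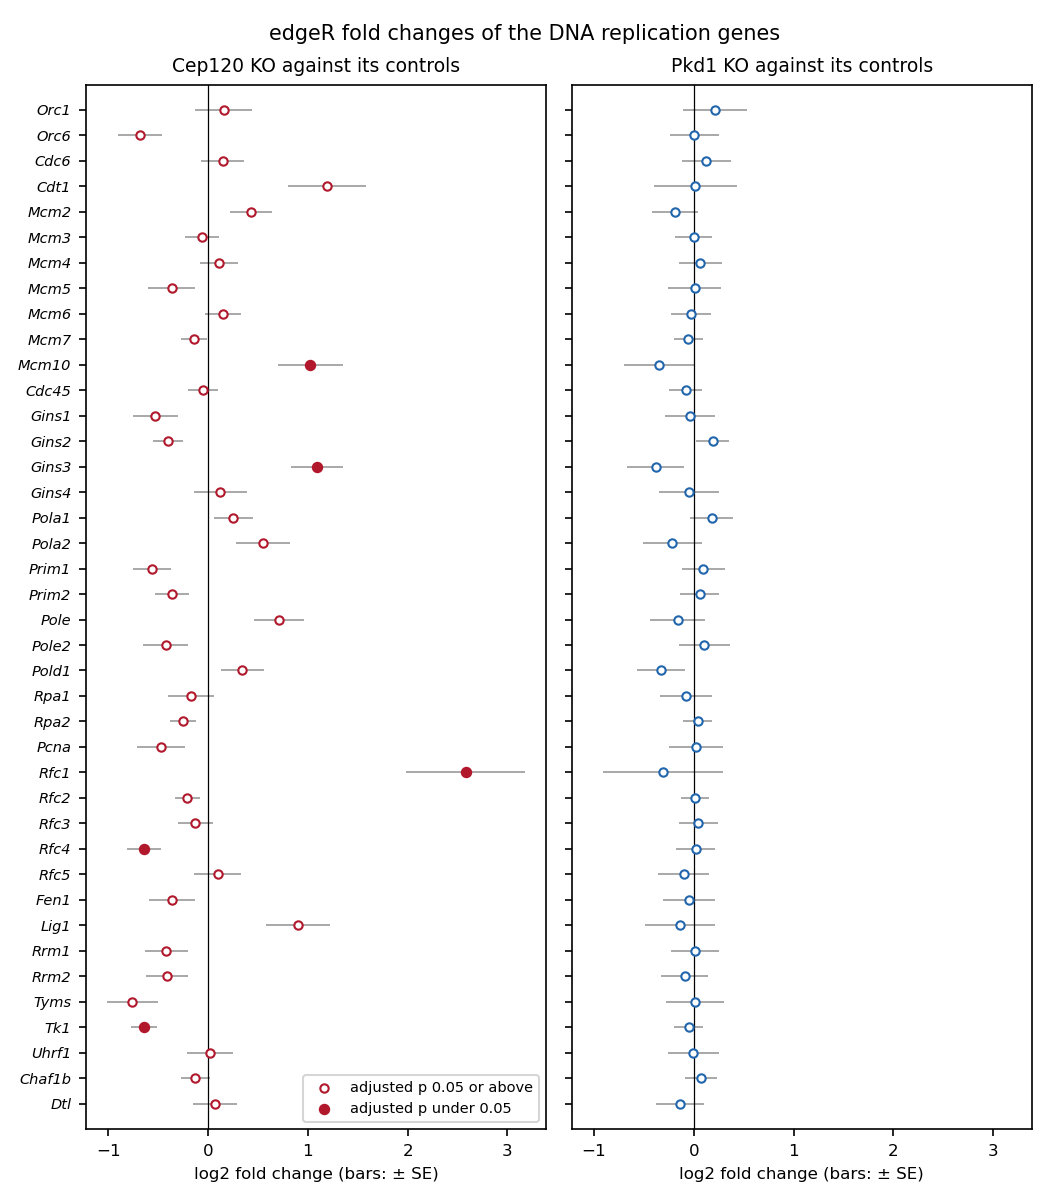
Log2 fold change of each DNA replication gene with its standard error (edgeR), for Cep120 KO against its controls on the left and Pkd1 KO against its controls on the right; filled points passed an adjusted p of 0.05. The 5 filled points are Mcm10, Gins3, Rfc1, Rfc4 and Tk1 in the Cep120 comparison, and every Pkd1 point lies between -0.38 and 0.21.

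The scale sets the sign of many members. On the deposited TPM, 36 of the 40 members had a higher mean in the libraries labelled Cep120 KO than in their controls, with a median log2 ratio of 0.58, while the median over 16806 genes was 0.76. On the deposited log2 CPM the members' median was 0.27 and that of all genes 0.45. Relative to all genes, the members' median lay 0.21 lower on TMM-scaled counts, 0.18 lower on each of those other scales, and 0.15 lower with offsets for transcript length and GC content. Of all counts, the 40 genes took 0.668, 0.729, 0.7095, 0.664 and 0.708% in libraries 2, 4, 5, 6 and 7, against 0.569, 0.641 and 0.635% in controls 1, 2 and 3. Every library labelled Cep120 KO thus gave the members a larger share of its counts than any control, although TMM-scaled sums over the members overlapped, at 5211 to 7365 CPM against 6607 to 7229 CPM. Folds and CPM values below are on the TMM scale unless a sentence names another.

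Origin licensing genes moved apart from each other. Cdt1, which loads the helicase together with Cdc6, had 23.9, 28.8, 27.4, 76.9 and 79.1 CPM in libraries 2, 4, 5, 6 and 7, against 16.3, 23.2 and 22.6 CPM in its controls. All 5 libraries labelled Cep120 KO lay above all 3 controls, library 2 only just, and libraries 6 and 7 lay far above the rest. Its log2 fold change was 1.19 (SE 0.39), just outside the threshold (edgeR, Benjamini-Hochberg adjusted p = 0.0548); it passed in 5 of 25 alternatives, among them the fit without library 2. Orc6, a subunit of the origin recognition complex, had 169.9, 120.2, 124, 84.0 and 79.9 CPM in libraries 2, 4, 5, 6 and 7, against 196, 163 and 197 CPM in controls. Library 2 lay among the controls and the other 4 lay below them, lowest in libraries 6 and 7. The log2 fold change of Orc6 was -0.68 (SE 0.22, edgeR adjusted p = 0.0502). Orc1 and Cdc6 showed another order: Orc1 stood at 17.7, 16.7 and 16.3 CPM in libraries 2, 4 and 5 but at 7.74 and 8.37 CPM in libraries 6 and 7, against 11.5 to 12.5 CPM in controls. Cdc6 stood at 129, 119 and 106 CPM in libraries 2, 4 and 5 but at 60.8 and 71.2 CPM in libraries 6 and 7, against 83.3 to 95.1 CPM in controls. For both genes the fold change over all 5 libraries was small, 0.16 for Orc1 and 0.15 for Cdc6 on the log2 scale, and neither passed.

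The Mcm subunits form a hexamer, yet their transcripts did not move as a block in libraries 6 and 7. Mcm2 had 193, 158, 163, 255 and 306 CPM in libraries 2, 4, 5, 6 and 7, against 141, 159.98 and 179 CPM in controls. Mcm6 had 222, 199, 196, 277 and 344 CPM in the same libraries, against 219, 228 and 222 CPM. Both were highest in libraries 6 and 7, with Mcm6 below its controls in libraries 4 and 5 and among them in library 2. Mcm5 had 499.6, 397, 359, 217 and 231 CPM, against 381, 476 and 458 CPM in controls. Mcm3 had 314, 339.9, 320.3, 207 and 242 CPM, against 282, 307 and 301 CPM in controls. These were lowest in libraries 6 and 7, the reverse of Mcm2 and Mcm6. The TPM of Mcm5 over that of Mcm2 was 3.23, 3.23, 2.80, 1.084 and 0.973 in libraries 2, 4, 5, 6 and 7, against 3.38, 3.65 and 3.21 in controls and 2.87 to 3.70 in the Pkd1 line; this ratio was chosen after the values were seen. Mcm5 was the highest and Mcm2 the lowest Mcm subunit by TPM in 12 of the 14 libraries, and Mcm7 was the highest and Mcm4 the lowest in libraries 6 and 7. None of the 6 subunits passed the test over all 5 libraries, with log2 fold changes from -0.36 (Mcm5) to 0.43 (Mcm2), but Mcm2 passed as higher without libraries 4 and 5, Mcm2 and Mcm4 as higher on the deposited log2 CPM (limma-trend), and Mcm5 as lower without library 2. The same 2 libraries carry the nephron progenitor transcripts and the lower ureteric bud sum given above, and the part of those cells in the hexamer's balance was not tested.

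**Figure D3:**
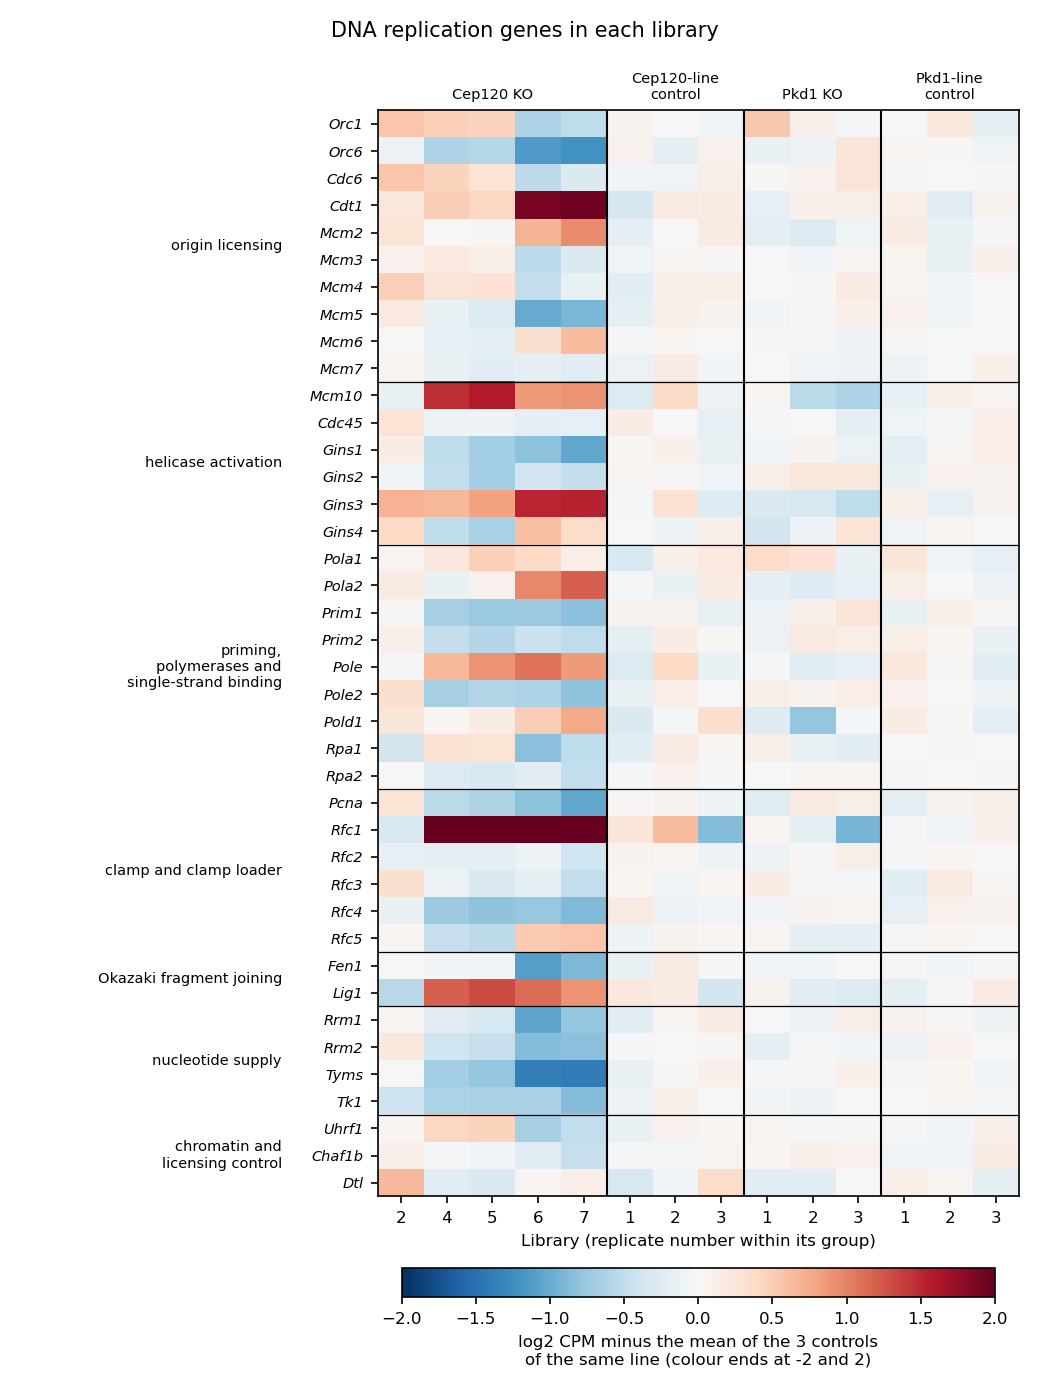
Log2 CPM of each DNA replication gene in each library minus the mean of the 3 controls of the same line, with genes grouped by role and libraries by group. Libraries 6 and 7 show Cdt1, Mcm2, Mcm6 and Pola2 above and Orc6, Mcm5, Fen1 and Tyms below their controls. The interquartile range over the members is 0.28 (log2) in library 2, against 0.73 to 1.38 in libraries 4 to 7. Over all genes tested it is wider in each of these libraries, at 0.70 in library 2 and 1.14 to 1.88 in libraries 4 to 7.

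Among the factors that activate the helicase, Gins3 and Mcm10 rose. Gins3 (ENSMUSG00000031669, chr8:95633453-95645060 in GRCm38), a subunit of the GINS complex, had 12.4, 12.2, 13.51, 22.1 and 22.5 CPM in libraries 2, 4, 5, 6 and 7, against 7.46, 9.40 and 6.38 CPM in controls. Its read counts were 189 to 707 in the KO libraries and 104 to 229 in controls. All 5 lay above all 3 controls, with libraries 6 and 7 highest; groups that did not overlap in this direction were found for 6.41% of all genes, and among members for Gins3 and Cdt1 alone. The log2 fold change of Gins3 was 1.09 (SE 0.26, edgeR adjusted p = 0.0299). It was lost without library 6 (edgeR adjusted p = 0.0526) or 7 (0.0564) and without control 1 (0.118), 2 (0.0933) or 3 (0.0974), and in the separate fit (0.133), at log2 values of 0.96 to 1.25. Library 2 alone gave 0.69, a value for 1 library, whose spread would have to be taken from the other groups. With length and GC offsets Gins3 was at 1.21 (edgeR adjusted p = 0.0477).

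Mcm10 (ENSMUSG00000026669, chr2:4989714-5012791), which helps the loaded helicase to start unwinding, had 19.0, 58.1, 62.9, 38.0 and 39.1 CPM in libraries 2, 4, 5, 6 and 7, against 17.2, 27.2 and 19.5 CPM in controls. Libraries 4 and 5 were highest and library 2 lay among the controls, so the groups overlapped. Its log2 fold change was 1.026 (SE 0.33, edgeR adjusted p = 0.0497). The call was at the threshold: 20 of 25 alternatives lost it, with edgeR adjusted p = 0.0652 without library 6, 0.0735 without library 7 and 0.0984 to 0.179 without a control, and library 2 alone gave a log2 value of -0.15. The other GINS subunits did not follow Gins3. Gins1 had 64.1, 40.8, 36.3, 32.7 and 28.3 CPM in libraries 2, 4, 5, 6 and 7, against 59.7, 62.4 and 52.5 CPM in controls. Gins2 had 139, 103, 90.3, 111 and 104 CPM, against 149.6, 147 and 137 CPM. Libraries 4 to 7 lay below the controls for both, and library 2 did not lie below them. Gins4 had 65.4, 34.8, 31.6, 75.1 and 63.7 CPM in the same order, against 49.5, 46.2 and 53.4 CPM, with libraries 4 and 5 below and the other 3 above. Cdc45, which rides with GINS on the helicase, had 50.98 to 70.4 CPM, against 51.8 to 64.8 CPM in controls.

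The priming and polymerase genes split by subunit. Prim1, the catalytic subunit of primase, had 129, 80.1, 75.7, 76.7 and 71.1 CPM in libraries 2, 4, 5, 6 and 7, against 134, 134 and 114 CPM in controls. Its partner Prim2 had 92.3, 61.9, 57.2, 63.6 and 60.1 CPM, against 75.8, 95.3 and 87.0 CPM in controls. Pole2, the second subunit of polymerase epsilon, had 39.6, 19.995, 21.1, 20.5 and 18.2 CPM, against 29.0, 34.9 and 32.0 CPM. In all 3 genes libraries 4 to 7 lay below every control and library 2 did not. Pole, the catalytic subunit of the same polymerase, went the other way, with 13.6, 22.1, 25.8, 29.7 and 24.99 CPM against 11.5, 18.4 and 12.6 CPM. Pola2, the accessory subunit of polymerase alpha, had 52.7 and 61.8 CPM in libraries 6 and 7 and 24.6 to 30.2 CPM in libraries 2, 4 and 5, against 24.6 to 30.1 CPM in controls. Pold1, the catalytic subunit of polymerase delta, had 109 and 131 CPM in libraries 6 and 7, against 63.0 to 96.1 CPM in controls. None of the 9 genes of this role passed; their log2 fold changes ran from -0.56 (Prim1) to 0.71 (Pole), with a median of -0.17. Rpa1 and Rpa2, which coat single-stranded DNA, were within that range, at -0.17 and -0.25 (log2).

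The clamp loader held the called gene with the greatest fold change. Rfc1 (ENSMUSG00000029191, chr5:65261850-65335670 in GRCm38), the large subunit that helps to open the clamp, had 12.4, 104, 106, 144 and 135 CPM in libraries 2, 4, 5, 6 and 7, against 18.2, 23.6 and 8.41 CPM in controls 1, 2 and 3. These rest on 189, 1955, 2590, 4012 and 4242 reads in the KO libraries, against 310, 575 and 137 reads in the controls. Libraries 4 to 7 were above every control and library 2 was below 2 of them, so the groups overlapped. The log2 fold change was 2.58 (SE 0.60, edgeR adjusted p = 0.0291). It was 2.86 without library 2 (edgeR adjusted p = 6.04e-05) and, as a value for 1 library, -0.42 with library 2 alone. It missed the threshold without library 6 (0.0507) or 7 (0.0542), without control 1 (0.114), 2 (0.0933) or 3 (0.0926), with length and GC offsets (0.0529) and in the separate fit (0.133), at log2 values of 2.26 to 2.91.

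Rfc4 (ENSMUSG00000022881, chr16:23113943-23127737), a small subunit, fell on the TMM scale, with 220.4, 146, 139, 143 and 131 CPM in libraries 2, 4, 5, 6 and 7, against 274, 223 and 229.9 CPM in controls. All 5 lay below all 3 controls, library 2 by a few CPM; groups that did not overlap in this direction were found for 8.75% of all genes, and among members for Rfc4 and Tk1 alone. Its log2 fold change was -0.64 (SE 0.17, edgeR adjusted p = 0.0329), but -0.07 with length and GC offsets (0.711), -0.27 on the deposited log2 CPM (limma-trend, 0.0967) and -0.000474 as a log2 ratio of mean TPM. It was also lost without library 6 (0.0580) or 7 (0.0635), without any control (0.0933 to 0.138), and in 20 of 25 alternatives in all. Rfc2, Rfc3 and Rfc5 stayed at log2 fold changes of -0.21, -0.13 and 0.09, with Rfc5 at 134 and 138 CPM in libraries 6 and 7 but 68.6 and 65.3 CPM in libraries 4 and 5, against 87.5 to 98.2 CPM in controls. Rfc4 TPM over Rfc1 TPM was 32.6, 5.14, 5.96, 2.79 and 2.94 in libraries 2, 4, 5, 6 and 7, against 35.8, 24.9 and 70.9 in controls and 20.3 to 46.3 in the Pkd1 line, a ratio chosen after the values were seen. Pcna, the clamp itself, had 395.5, 226, 217, 185 and 159.7 CPM, against 333, 343 and 306 CPM in controls, with library 2 above and libraries 4 to 7 below, and did not pass.

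**Figure D4:**
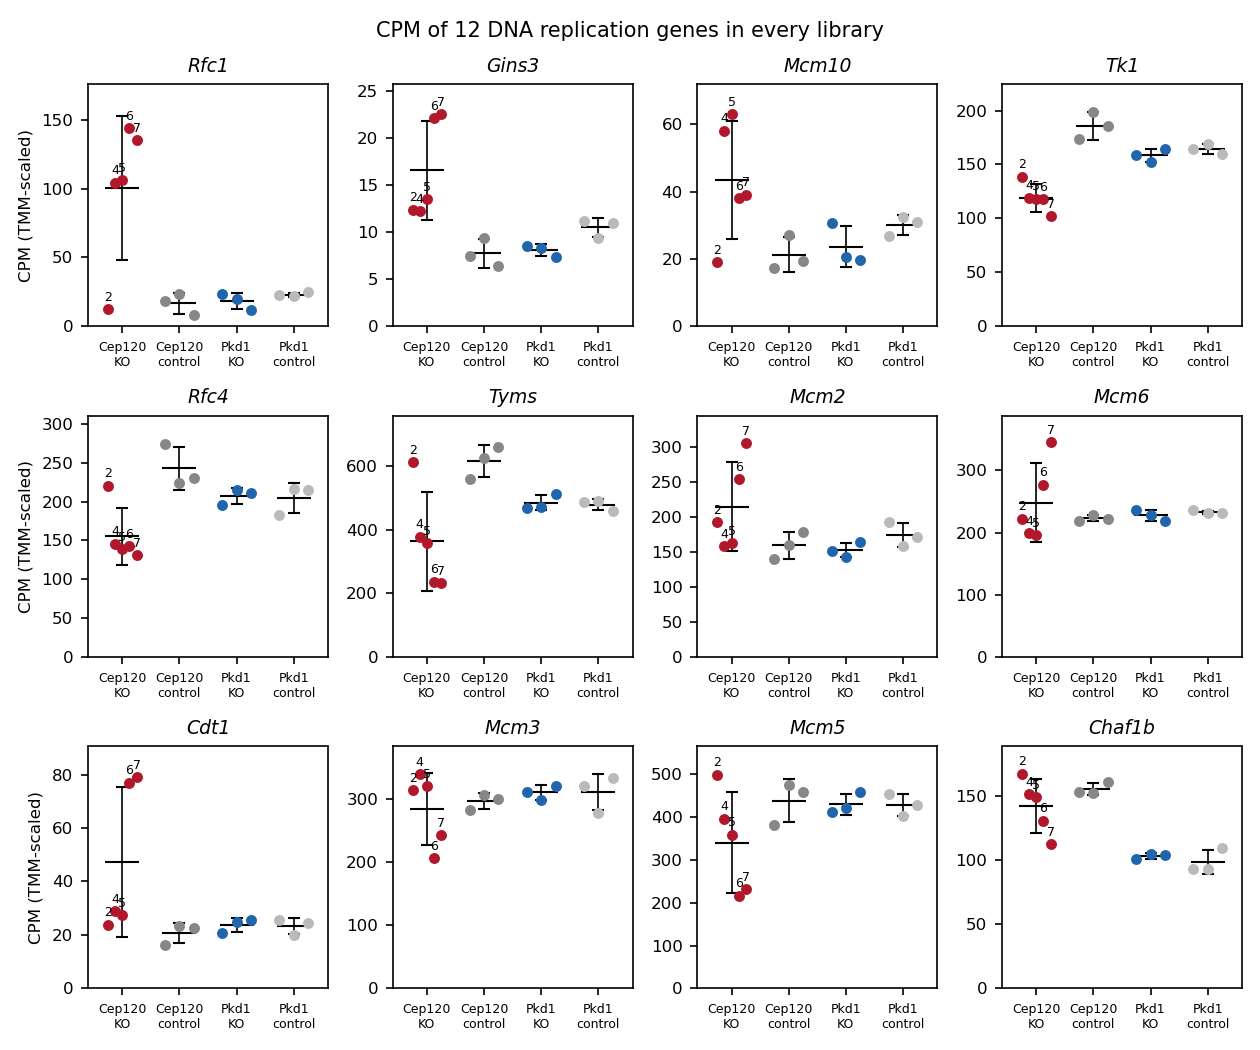
CPM (TMM-scaled) of 12 DNA replication genes in all 14 libraries, with points for libraries, the replicate number beside each Cep120 KO point, and black bars for mean ± SD (n = 5 for Cep120 KO, n = 3 for the other groups). Rfc1 stands at 104 to 144 CPM in libraries 4 to 7 labelled Cep120 KO and at 24.6 CPM or below in the other 10, and Tk1 is the clearest of the lower genes.

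The deposited transcript estimates show where the Rfc1 signal lies. Rfc1-206, a protein-coding transcript, had 1.42, 15.0, 18.5, 36.2 and 29.7 TPM in libraries 2, 4, 5, 6 and 7, against 0.916 to 3.57 TPM in the other 9. Rfc1-205, annotated with a retained intron, had 30.5 and 27.9 TPM in libraries 6 and 7 and 1.91 to 2.54 TPM in libraries 2, 4 and 5, against 0 to 3.55 TPM in the other 9. Rfc1-206 was thus high in libraries 4 to 7, and Rfc1-205 in libraries 6 and 7. Of the other protein-coding transcripts, Rfc1-201 and Rfc1-202 were at 2.23 to 8.70 TPM in libraries 4 to 7, against 0 to 1.28 TPM in the 9 libraries of the other groups. Rfc1-203 had 0, 2.03, 1.40, 0.632 and 0.973 TPM in libraries 2, 4, 5, 6 and 7, against 0 to 0.959 TPM in those 9. Rfc1-204 had 1.93, 6.77, 1.53, 0.530 and 1.18 TPM in the same order, against 0 to 1.57 TPM in those 9. Over the 19 members whose listed transcripts add up to the gene's TPM within 1% in every library, retained-intron transcripts took 30.3 and 26.5% of the summed TPM in libraries 6 and 7 and 21.9 to 23.9% in libraries 2, 4 and 5, against 23.0 to 26.5% in the Cep120-line controls. This share weighs genes by their TPM. The median share per gene, over the 14 with such a transcript, was 8.75 and 10.4% in libraries 6 and 7. It was 6.05 to 7.29% in libraries 2, 4 and 5, 5.38 to 7.43% in the Cep120-line controls and 3.36 to 8.52% in the Pkd1 line. The kit does not mark the strand, so antisense reads in such introns cannot be told apart.

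**Figure D5:**
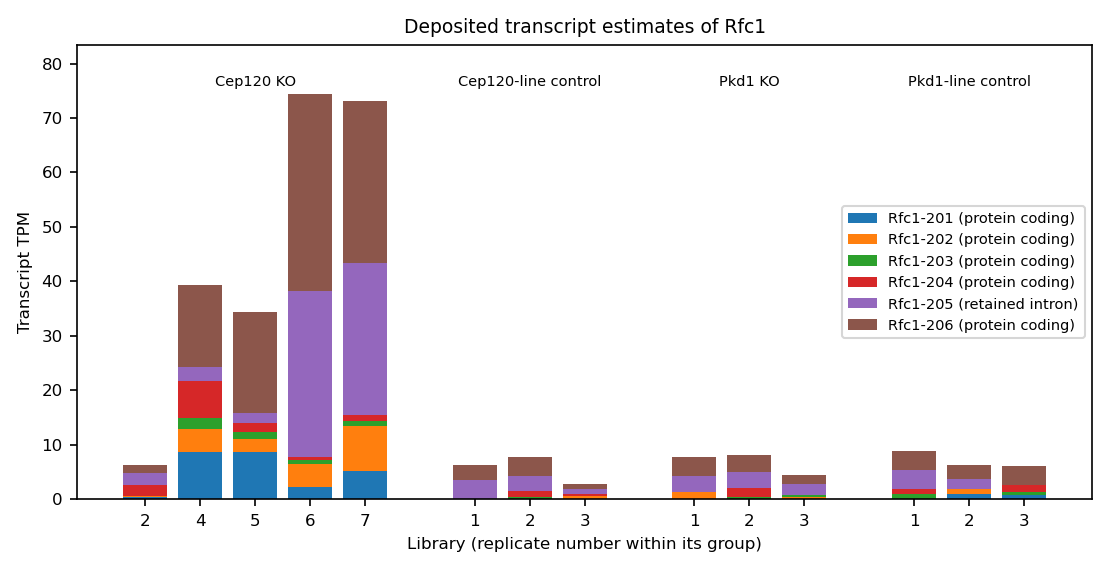
TPM of the Rfc1 transcripts that reach 1 TPM in any library, stacked, for each of the 14 libraries. The stacks stand high in Cep120 KO libraries 4 to 7, and the retained-intron transcript Rfc1-205 makes up 30.5 and 27.9 TPM in libraries 6 and 7.

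The genes that join Okazaki fragments differed. Lig1, the ligase that seals them, had 54.4, 184, 198, 174 and 149 CPM in libraries 2, 4, 5, 6 and 7, against 93.0, 89.1 and 62.0 CPM in controls. Fen1, the nuclease that trims their flaps, had 273, 263, 255, 126 and 145 CPM, against 247, 307 and 264 CPM. Lig1 was high in libraries 4 to 7 and below every control in library 2, and Fen1 was low in libraries 6 and 7. Neither passed, at log2 fold changes of 0.90 (SE 0.32) for Lig1 and -0.36 (SE 0.23) for Fen1.

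All 4 nucleotide supply genes had negative log2 fold changes on the TMM scale, from -0.76 to -0.41, and Tk1 passed. Tk1 (ENSMUSG00000025574, chr11:117815526-117826092), the thymidine kinase of the salvage pathway, had 139, 119, 118, 118 and 102 CPM in libraries 2, 4, 5, 6 and 7, against 173, 199 and 186 CPM in controls. All 5 lay below all 3 controls, library 2 included, and the spread within each group was small. Its log2 fold change was -0.64 (SE 0.13, edgeR adjusted p = 0.0290), and it kept the call with length and GC offsets at -0.61 (0.0427) and without library 6 (0.0487). It lost the call without library 7 (0.0537), without a control (0.0926 to 0.114), in the separate fit (0.133) and on the deposited log2 CPM (limma-trend, -0.26, 0.0880), and its log2 ratio of mean TPM was 0.01. Library 2 alone gave -0.40. Tyms had 611, 377, 357, 237 and 233 CPM in libraries 2, 4, 5, 6 and 7, against 559.8, 624 and 660.1 CPM in controls. Library 2 lay among the controls, libraries 4 and 5 lower and libraries 6 and 7 lowest, and the log2 fold change of -0.76 (SE 0.25) missed the threshold (edgeR adjusted p = 0.0582), with 0.01 from library 2 alone. Rrm1 and Rrm2 are the subunits of ribonucleotide reductase. Rrm1 followed the same order, with library 4 (378 CPM) only just below the lowest control (381 CPM). Rrm2 had 749, 487, 469, 354 and 360.01 CPM, against 633, 643 and 658 CPM in controls. Its libraries 4 to 7 followed that order too, but library 2 lay above every control. On the TPM scale Rrm1 and Rrm2 had higher means in the libraries labelled Cep120 KO, 149.9 and 318 TPM, against 122 and 276 TPM in controls.

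Of the remaining 3 genes, Uhrf1, which brings the maintenance DNA methyltransferase to replicated DNA, had 357, 464, 469, 219.7 and 246 CPM, against 315, 368 and 358 CPM in controls. It was high in libraries 4 and 5 and low in libraries 6 and 7, as were Orc1, Cdc6 and Rpa1. Rpa1 had 188, 295, 293, 135 and 171 CPM in libraries 2, 4, 5, 6 and 7, against 210 to 272 CPM in controls. In library 2 these genes differed: Uhrf1 lay among its controls, Orc1 and Cdc6 above theirs and Rpa1 below. Chaf1b, of the histone chaperone that follows the fork, and Dtl, part of a ubiquitin ligase that removes Cdt1 in S phase, had log2 fold changes of -0.13 and 0.07. Neither passed.

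Counted by library, library 2 stood above all 3 controls for 18 members and below all 3 for 5, against 26.3 and 30.3% of all genes (45 and 12.5% of members). Libraries 4 and 5 each stood above for 13 members and below for 21, where 37 and 31% of all genes did so in library 4 and 37.6 and 31.2% in library 5. Library 6 stood above for 13 and below for 25 (41.6 and 37.6% of all genes), and library 7 above for 12 and below for 24 (41.6 and 36.3%). The median over members of the log2 difference from the control mean was 0.07, -0.14, -0.19, -0.31 and -0.43 in libraries 2, 4, 5, 6 and 7, while that over all genes was -0.03, 0.09, 0.09, 0.09 and 0.11. Library 2 therefore differs in sign from the other 4. Across the 40 genes, fold change rose with transcript length (Spearman 0.39 across genes, which are not independent replicates), as it did across 16862 genes (0.37); in the Pkd1 comparison the values were -0.11 and -0.09.

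In Pkd1 KO, 0 of 40 genes passed with edgeR, as did 0% of all genes; at an unadjusted p under 0.05 there were 0 members, against 113 higher and 146 lower genes (0.67 and 0.865%), and DESeq2 and limma-voom called 0 members as well. Log2 fold changes ran from -0.38 to 0.21 with a median of -0.00. Gins3 had 8.51, 8.32 and 7.33 CPM in Pkd1 KO, against 11.2, 9.33 and 11.0 CPM in controls, a log2 fold change of -0.38 (SE 0.28, edgeR adjusted p = 1). Its KO libraries lay below every control, as did those of Pola2, where 6.19% of all genes did so; Cdc6 and Gins2 lay above every control, where 4.88% did so. Pold1 had 73.4, 51.4 and 86.6 CPM, against 97.7, 89.5 and 77.6 CPM (-0.33, SE 0.24), and Mcm10 had 30.7, 20.7 and 19.6 CPM, against 26.8, 32.6 and 30.9 CPM (-0.35, SE 0.35). Both overlapped with their controls. Gins2 had 134, 145 and 145 CPM, against 111, 132 and 129 CPM (0.19, SE 0.17). Orc1 had 16.3, 12.003 and 10.9 CPM, against 11.1, 12.9 and 9.75 CPM (0.21, SE 0.32). The edgeR adjusted p was 1 for each of these genes. By library, KO library 1 stood above all 3 controls for 8 members and below them for 12 (23.9 and 25.6% of all genes), library 2 for 7 and 17 (26.4 and 25.3%), and library 3 for 14 and 10 (26.3 and 29.5%). The 40 genes took 0.618 to 0.622% of counts in Pkd1 KO, against 0.643 to 0.651% in its controls.

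The difference between the Cep120 and Pkd1 effects passed for 0 members and 0% of all genes with edgeR; at an unadjusted p under 0.05, 5 members were higher and 4 lower (12.3 and 8.09% of all genes). DESeq2 called 3 members, Gins3, Rfc1 and Tk1, and these were also among the 16 that limma-voom and the 15 that edgeR without library 2 called. The smallest p belonged to Gins3 (log2 difference 1.47, SE 0.38), Rfc1 (2.89, SE 0.83) and Tk1 (-0.59, SE 0.19), each with an edgeR adjusted p = 0.176. Whether the effects on these genes differ between the lines thus depended on the tool and on library 2.

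Between control groups, the genes were mostly level, with Chaf1b as the clearest difference. Chaf1b had 154, 153 and 161 CPM in the Cep120-line controls, against 93.3, 93.2 and 109 CPM in the Pkd1-line controls, a log2 difference of 0.66 (SE 0.16). All 8 libraries of the Cep120 line, KO included, stood at 113 to 168 CPM, against 93.2 to 109 CPM in all 6 of the Pkd1 line. It did not pass in edgeR (adjusted p = 0.315), where 0 members and 21 genes (0.124%) did (0.107% higher and 0.0178% lower) and 1 member had an unadjusted p under 0.05, on the higher side as for 2.5% of all genes, but it did in a separate fit of the control groups, in DESeq2 and in limma-voom. Gins3 and Mcm10 were next, at -0.43 (SE 0.28) and -0.50 (SE 0.35), with edgeR adjusted p = 0.998 for each. In CPM, 8 members lay higher in every Cep120-line control than in any Pkd1-line control, Tyms, Tk1, Rfc4, Pcna, Prim1, Rpa2 and Gins2 beside Chaf1b, where 11.5% of all genes did so, and Mcm6 and Uhrf1 lay lower, where 9.99% did.

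Other genes of replication and of the G1/S transition are given from lists drawn up with earlier results of these data known. In the Cep120 comparison 7 of 34 other fork and origin factors rose and 2 fell (edgeR, Benjamini-Hochberg adjusted p under 0.05; 8.4 and 6.26% of all genes). Top1, which relaxes DNA ahead of the fork, had 77.2, 178, 179, 217 and 189 CPM in libraries 2, 4, 5, 6 and 7, against 75.9, 68.7 and 68.0 CPM in controls (log2 1.24, SE 0.27). Topbp1, needed for helicase activation, rose by 0.71 (SE 0.18), and Atad5, which unloads the clamp, rose by 1.70 (SE 0.44) on the log2 scale. Of 12 other nucleotide and S-phase chromatin genes, 3 rose and 2 fell, among them Nasp, a histone chaperone, at 0.74, Dnmt1, the maintenance methyltransferase, at 1.72, and Asf1a, a histone chaperone, at -0.84 (log2). Of 20 G1/S regulators 3 rose and 0 fell: Cdkn1a, a cyclin-dependent kinase inhibitor, had 85.9, 93.1, 110.1, 80.7 and 45.0 CPM in libraries 2, 4, 5, 6 and 7, against 43.8, 40.2 and 41.1 CPM (0.99, SE 0.26). All 5 lay above all 3 controls. Ccnd1 rose by 0.66 and E2f8 by 1.14 (log2). The list medians were 0.23, -0.01 and 0.35, against 0.12 for all genes, and without library 7 or without any of controls 1, 2 and 3 each list had 0 calls, as in the separate fit. With length and GC offsets Top1 (higher) and Rnaseh2a (lower), a subunit of RNase H2, were the only calls left in the 3 lists. In Pkd1 KO each of the 3 lists had 0 calls.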

How the data were processed

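RNA from cells sorted for GFP was measured in 14 libraries made with the SMARTer Ultra Low kit, which does not mark strand, per the labels' protocols. The authors' deposited gene table holds estimated counts (88.4 to 91.6% of values whole), and the deposited TPM tables, of genes and transcripts, are per length. A deposited table holds moderated log2 CPM. DRAGEN and mm9 are named per the submitters' processing notes, with no role, and how reads were counted is not given in the sources. Of 55774 lines, 287 repeats with the same values were dropped, leaving 55487 genes. Every column of per-sample values had a sample. Counts were rounded to whole numbers, which moved library totals by at most 0.00034%.

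With R 4.3.3, 16876 genes passed edgeR's filter (minimum count 10). edgeR 4.0.16 fitted all 4 groups in one quasi-likelihood model (10 residual degrees of freedom, TMM scaling, Benjamini-Hochberg adjustment over all genes, threshold 0.05), and log2 CPM used a prior count of 2. Contrasts were each KO against its controls, their difference, and the control groups. Alternatives used DESeq2 1.42.0, limma 3.58.1 (voom with sample quality weights, trend on the deposited log2 CPM), other scaling, no filter, separate fits, a replicate block, offsets for transcript length and GC content (splines, 5 degrees of freedom), and libraries left out or summed. The edgeR fit of Cep120 KO against its controls was tested on simulated counts with known folds. The simulation gave all genes the same spread and left out the differences among Cep120 KO libraries described above. The other tools, contrasts and steps were not simulated.

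The 40 genes and the other lists were chosen with earlier results of these data known. Full values are given for members called in any contrast, the 3 with the smallest p in each, and the 2 highest and 2 lowest folds in each KO contrast; other genes described are chosen after their values were seen. Promoters were matched by symbol to RefSeq (GRCm38.p6), and gene positions are from GENCODE M21 (GRCm38), not from mm9.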

Additional observations from a re-analysis of the deposited data

Results flagged for a closer look

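Of 41 sets of values tested for a library far from its group, 7 met the criterion, where chance gives about 1 in 20 groups. In all 7 library 2 was the highest library labelled Cep120 KO and lay far from libraries 4 to 7. Mcm7 stood at 392 CPM in library 2, with 326 to 344 CPM in the others of the group, and Cdc45 at 70.4 CPM, with 50.98 to 54.4 CPM. Prim1 stood at 129 CPM, with 71.1 to 80.1 CPM in the others, and Prim2 at 92.3 CPM, with 57.2 to 63.6 CPM. Pole2 stood at 39.6 CPM, with 18.2 to 21.1 CPM in the others, Pcna at 395.5 CPM, with 159.7 to 226 CPM, and Rfc4 at 220.4 CPM, with 131 to 146 CPM. These values share 1 library, so they are not independent of each other.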

How the results depend on the processing

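For Cep120 KO against its controls (5 members and 2475 genes called), the counts of members and of all genes called were 0 and 0 in a separate fit, 12 and 4199 with DESeq2, 22 and 6665 with limma-voom, 3 and 1028 without libraries 6 and 7, 0 and 5 with the other KO libraries left out so that library 2 stood alone, 3 and 1400 with libraries 4 and 5 summed, and 2 and 244 with length and GC offsets. Leaving out 1 library gave 0 to 20 members and 2 to 5719 genes. The members' median was 0.27 by limma-trend on the deposited log2 CPM. With library 2 alone the log2 fold changes of Mcm10 (-0.15), Rfc1 (-0.42) and Tyms (0.0112), and the Rfc1 difference between lines (-0.11), had the opposite sign; that fit takes its spread from the other groups, assuming that a lone library varies like theirs, so its lost calls say nothing on stability, and the cause was not tested. The fit without libraries 4 and 5 was chosen after seeing the data. For Pkd1 KO, all genes called were 3 in a separate fit, 3 with DESeq2 and 1 with limma-voom; the members' median was -0.0241 with limma-voom and -0.0424 with limma-trend, and -0.0388 to -0.00271 with 1 library left out. For the difference of the effects, 1 gene was called with no filter, 715 with DESeq2 (3 members), 4383 with limma-voom (16 members), 1 with limma-trend, 4 without libraries 6 and 7, 5 with library 2 alone and 1 without libraries 4 and 5; leaving out 1 library gave 0 to 15 members and 0 to 3140 genes, and the median was 0.31 by limma-trend. For the control groups, 1 member (Chaf1b) was called in a separate fit (139 genes), with DESeq2 (84) and with limma-voom (131); leaving out 1 library gave 12 to 29 genes, and the median was -0.0825 by limma-trend. With a replicate block, 99 genes and 0 members were called between the control groups (Chaf1b at edgeR adjusted p = 0.0649), and 0 genes in Pkd1 KO. Same-numbered Pkd1 libraries had deviations that correlated at -0.05, -0.03 and -0.12, against -0.09 to 0.12 for the other Pkd1 pairs. These values gave no sign of pairing by number, and the labels do not say whether same-numbered libraries share a litter or preparation. No paired analysis was possible for Cep120 because its groups share only replicate number 2.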
